A study of Mus musculus with 6 samples.

Results

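Transforming growth factor beta (TGF-β) ligands, their receptors and the Smad proteins that carry the signal were followed in RNA sequencing libraries of mouse cortical neuron cultures. The members were 10 genes chosen by symbol: the ligands Tgfb1, Tgfb2 and Tgfb3, the receptors Tgfbr1, Tgfbr2 and Tgfbr3, the signal carriers Smad2, Smad3 and Smad4, and the induced matrix gene Tgfbi. All 10 were among the 24411 genes of the deposited count table, and all 10 had enough counts to be tested, as had 13919 genes in all. The PFF group (3 libraries) had been given mouse α-synuclein preformed fibrils, which are aggregates made outside the cell to seed aggregation of the cell's own protein, at 3.45 µM on day 10 in vitro. The PBS group (3 libraries) had been given phosphate-buffered saline. Cells of both groups came from the cortex of mice at embryonic day 18, were plated in medium with fetal bovine serum and then kept in a neuron medium. The RNA is from day 18 in vitro, 8 days after the fibrils were added. No genotype or strain was given in the labels, and nothing says that the libraries came from separate cultures, so each p-value measures library-to-library spread alone, which may be technical.

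TGF-β ligands are secreted in a latent form, bound to their own propeptide, and are released by integrins or proteases at the cell surface. The free ligand binds TGFBR2, which recruits and phosphorylates TGFBR1, and TGFBR1 in turn phosphorylates SMAD2 and SMAD3, which enter the nucleus with SMAD4. In the brain, microglia are a main source of TGF-β1, which keeps them in their resting state, while neurons and astrocytes make TGF-β2 and TGF-β3.

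Library totals ranged from 10036469 to 10230592 counts in PFF and from 9224974 to 10742383 in PBS. On the second principal component, which held 18.3% of the variance, replicate 3 of both groups stood apart from the other libraries. Neuron markers were abundant, and the summed level of the 14 listed lay between 8085 and 8965 CPM (counts per 1000000, TMM-normalised) in PFF and between 8218 and 8461 CPM in PBS. The cultures also held other cells: 12 astrocyte markers summed to between 4301 and 5363 CPM in PFF and between 4360 and 5649 CPM in PBS. In total 554 genes, or 3.98% of those tested, were higher in PFF and 362, or 2.60%, were lower, together 6.58%, at an adjusted p under 0.05 in edgeR's quasi-likelihood test with Benjamini-Hochberg adjustment over all tested genes.

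Of the 10 members, Tgfb1, Tgfbr2 and Tgfbr1 rose after the fibrils and none fell, against the 3.98% of all genes called higher. The ligand gene Tgfb1 was 2.77-fold higher, the receptor gene Tgfbr2 1.72-fold and its partner Tgfbr1 1.45-fold. The other ligands, the co-receptor Tgfbr3, the Smads and Tgfbi did not pass the test. The median log2 fold change of the members was -0.0025, beside -0.00056 over all tested genes. For these 3 genes every PFF library exceeded every PBS library, which was so for 13.4% of all tested genes; either direction without overlap was found for 25.0%. Tgfbr3 lay lower without overlap, as did 11.6% of all tested genes, and for the other 6 members the groups overlapped.

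**Figure D1:**
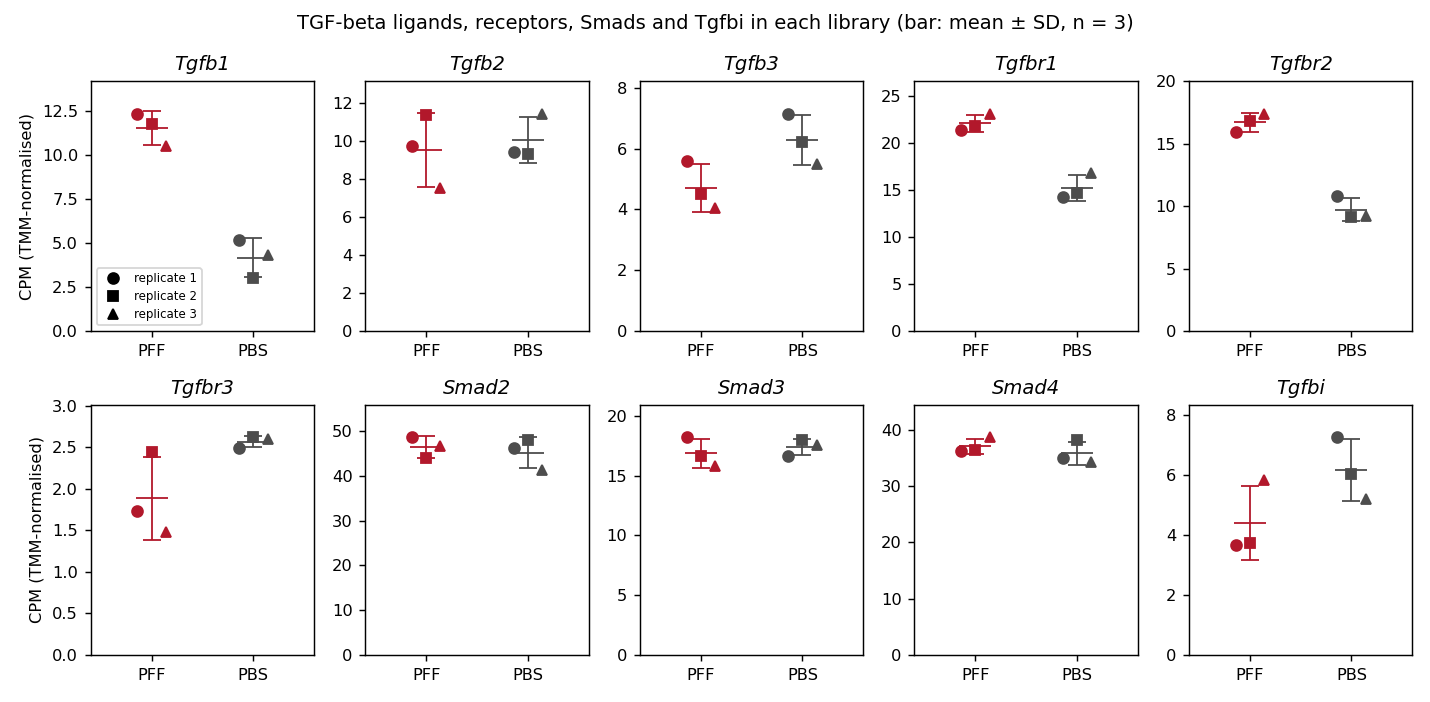
Normalised level (CPM, vertical axis from 0) of each of the 10 members in the 3 PFF and the 3 PBS libraries, with the mean and SD. Tgfb1 (10.5 to 12.3 CPM in PFF), Tgfbr1 and Tgfbr2 lay higher in every PFF library than in any PBS library, and the 3 Smads overlapped between the groups.

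Tgfb1, the ligand that acts most widely in immune regulation and wound repair, had 12.3, 11.7 and 10.5 CPM in PFF libraries 1, 2 and 3, against 5.198, 3.01 and 4.33 CPM in PBS libraries 1, 2 and 3. The lowest PFF library thus stood well above the highest PBS library. The log2 fold change was 1.47 ± 0.18 (SE, n = 3 per group here and below), with an adjusted p of 0.000229, and 90 of the 13919 tested genes had a smaller p. Tgfb1 lies on chromosome 7 from 25687002 to 25705077 (GENCODE vM21 on GRCm38, the assembly also called mm10), and none of its exonic bases is shared with another annotated gene.

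Tgfb2, the ligand best known from the development of heart, eye and skeleton, had 9.74, 11.4 and 7.51 CPM in PFF, against 9.42, 9.32 and 11.5 CPM in PBS. Its libraries overlapped widely, and the log2 fold change was -0.08 ± 0.17 with a 95% interval from -0.43 to 0.28 (adjusted p = 0.835). The sign of this value turned positive without PFF 3 (0.07), without PBS 3 (0.03) and with replicates 1 and 2 only (0.18). Tgfb3, the ligand needed for palate closure, had 5.59, 4.50 and 4.05 CPM in PFF, against 7.15, 6.21 and 5.49 CPM in PBS. Only PFF 1 reached the range of the PBS libraries, but the log2 fold change of -0.41 ± 0.18 did not pass in edgeR's test after adjustment (unadjusted p = 0.0444, adjusted p = 0.224). Of the exonic bases of Tgfb3, 12.4% overlap gene models on the opposite strand, and how the counting used strand is not given in the sources used here.

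Tgfbr2, the ligand-binding kinase, had 15.9, 16.8 and 17.4 CPM in PFF, against 10.8, 9.13 and 9.24 CPM in PBS. The groups were far apart relative to their spread, with a log2 fold change of 0.78 ± 0.12 and an adjusted p of 0.00145. Tgfbr1, the kinase that phosphorylates the Smads, had 21.4, 21.8 and 23.1 CPM in PFF, against 14.3, 14.7 and 16.8 CPM in PBS. Every PFF library stood above every PBS library, by a log2 fold change of 0.53 ± 0.11 and an adjusted p of 0.00862. Without PBS 1 the call of Tgfbr1 ended (0.49 ± 0.12, adjusted p = 0.0549, where 2.52% of all genes were called higher), and over all alternatives its adjusted p ran from 0.00094 to 0.0549. Tgfbr2 lies on chromosome 9 from 116084293 to 116175360 and Tgfbr1 on chromosome 4 from 47353222 to 47414931, and neither shares exonic bases with another annotated gene.

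Tgfbr3 encodes betaglycan, a co-receptor without a kinase domain that presents TGF-β2 to the other receptors. It was the least abundant member, with 18, 25 and 15 counts in PFF, against 23, 27 and 27 counts in PBS. These amounted to 1.73, 2.45 and 1.48 CPM in PFF and 2.49, 2.62 and 2.60 CPM in PBS, so that PFF 2 lay just under the lowest PBS library. The log2 fold change of -0.44 ± 0.26 did not pass (adjusted p = 0.346), and its 95% interval ran from -0.998 to 0.11.

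Smad2 had 48.6, 43.9 and 46.8 CPM in PFF, against 46.1, 47.96 and 41.4 CPM in PBS. Smad3 had 18.2, 16.6 and 15.8 CPM in PFF, against 16.7, 17.96 and 17.6 CPM in PBS. Smad4, the partner shared with bone morphogenetic protein signalling, had 36.2, 36.4 and 38.7 CPM in PFF, against 34.98, 38.2 and 34.4 CPM in PBS. For each Smad gene the libraries of the groups were interleaved. Their log2 fold changes were 0.04 ± 0.09 for Smad2, -0.04 ± 0.11 for Smad3 and 0.05 ± 0.09 for Smad4, with adjusted p from 0.795 to 0.860. The 95% intervals ran from -0.15 to 0.23 for Smad2, from -0.28 to 0.19 for Smad3 and from -0.14 to 0.24 for Smad4. A mean change of the size seen in Tgfb1, Tgfbr2 or Tgfbr1 lay outside each of these intervals. The signs of Smad2, Smad3 and Smad4 turned under some alternatives.

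Tgfbi, which encodes an extracellular matrix protein induced by TGF-β in many cell types, had 3.66, 3.72 and 5.83 CPM in PFF, against 7.26, 6.02 and 5.197 CPM in PBS. PFF 3 stood within the PBS range and the other PFF libraries below it. The log2 fold change was -0.48 ± 0.21 and did not pass (adjusted p = 0.219), while without PFF 3 it was -0.73 ± 0.22 and passed (adjusted p = 0.0372, where 7.01% of all genes were called lower). With replicates 1 and 2 only it was -0.83 ± 0.23 (adjusted p = 0.0121, where 8.38% of all genes were called lower), and with replicate 3 as a batch term it was -0.48 ± 0.21 and did not pass (adjusted p = 0.128). With replicates 1 and 2 only, Tgfb1, Tgfbr2 and Tgfbr1 passed with log2 fold changes of 1.57, 0.72 and 0.58, where 8.78% of all genes were called higher.

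**Figure D2:**
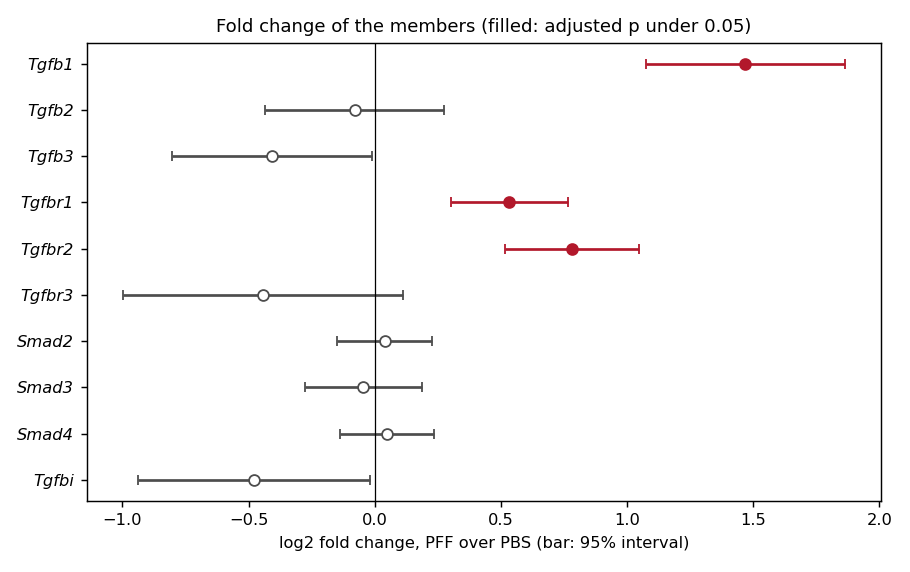
Log2 fold change of PFF over PBS for each member, with its unadjusted 95% interval, and filled points for an adjusted p under 0.05. Tgfb1 (1.47), Tgfbr2 (0.78) and Tgfbr1 (0.53) lie to the right of 0, and the intervals of the 3 Smads straddle 0.

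Levels were compared between genes after division by the exonic length, as CPM per kb. That length merges all annotated exons of a gene (5042 bases for Tgfb1, 5791 for Tgfb2 and 3383 for Tgfb3). It can exceed the length of the transcript present, so orders and shares between genes depend on this choice. In PFF the order from high to low was Smad4 (9.996 CPM per kb), Smad2 (5.28), Tgfbr1 (3.39), Smad3 (3.05), Tgfb1 (2.29), Tgfbr2 (2.04), Tgfb2 (1.65), Tgfb3 (1.39), Tgfbi (1.17) and Tgfbr3 (0.289). In PBS it was Smad4 (9.65 CPM per kb), Smad2 (5.14), Smad3 (3.14), Tgfbr1 (2.34), Tgfb3 (1.86), Tgfb2 (1.74), Tgfbi (1.63), Tgfbr2 (1.19), Tgfb1 (0.829) and Tgfbr3 (0.393). Each Smad gene stood above each ligand gene in both groups. In PFF the neighbours Tgfbr1 and Smad3 overlapped between libraries, as did each neighbour from Tgfb1 down to Tgfbi. In PBS the neighbours Tgfb3, Tgfb2 and Tgfbi overlapped in the same way, and the other neighbours were separate. On this length scale Tgfb1 therefore ranked 5 among the members in PFF and 9 in PBS.

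The makeup of the ligand transcripts followed from these levels. Tgfb1 made up 42.3%, 41.4% and 45.4% of the summed length-scaled ligand level in the PFF libraries, against 21.6%, 14.8% and 19.3% in the PBS libraries. With the merged exon lengths, the Tgfb1 share was above that of Tgfb2 and of Tgfb3 in every PFF library and below both in every PBS library. Other transcript lengths were not tried. The share of Tgfb3 averaged 26.2 ± 2.46% in PFF and 42.0 ± 4.93% in PBS (SD, n = 3 each). The summed ligand level overlapped, with 5.33 ± 0.656 CPM per kb in PFF and 4.42 ± 0.365 CPM per kb in PBS. Among the receptors, Tgfbr1 held 59.2 ± 1.18% of the summed level in PFF and 59.6 ± 3.30% in PBS, Tgfbr2 held 35.7 ± 0.325% in PFF and 30.4 ± 3.31% in PBS, and Tgfbr3 held 5.05 ± 1.33% in PFF and 10.04 ± 0.538% in PBS. The summed receptor level was 5.72 ± 0.211 CPM per kb in PFF and 3.92 ± 0.174 CPM per kb in PBS, with no overlap. These shares rest on the values already tested above and were given no test of their own.

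**Figure D3:**
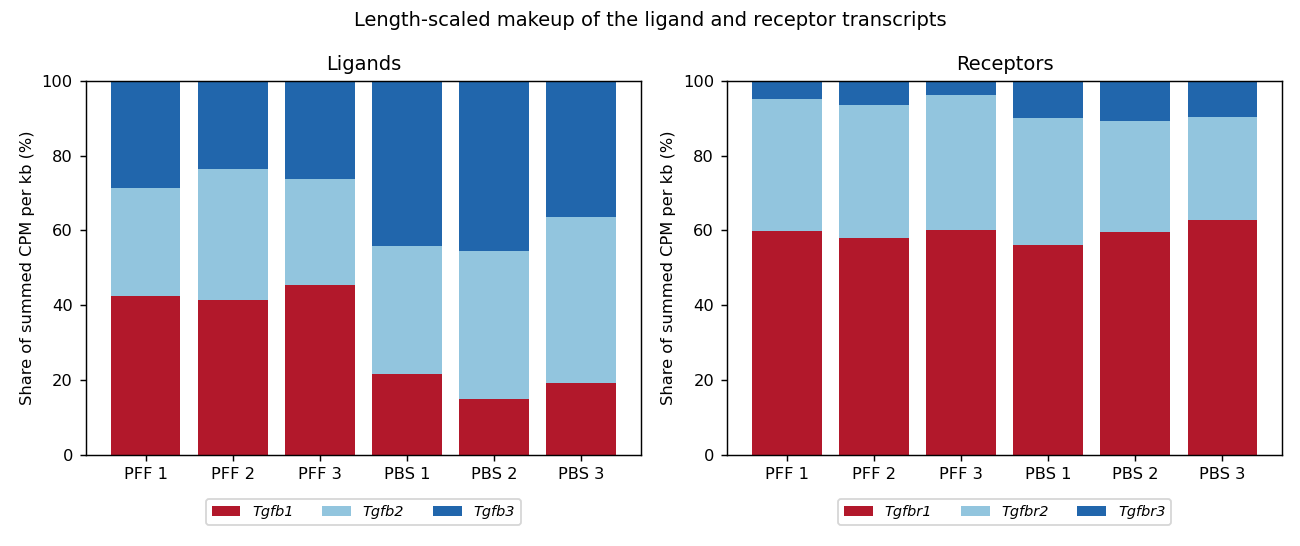
Share (%) of each gene in the summed length-scaled level (CPM per kb of merged exons) of the 3 ligands and of the 3 receptors, in each of the 6 libraries. The Tgfb1 segment is the largest ligand segment in each PFF library (41.4% to 45.4%) and the smallest in each PBS library (14.8% to 21.6%).

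The sequences upstream of Tgfb1, Tgfbr2 and Tgfbr1 are shown because these 3 genes were called higher in PFF. They are the 250 bases before the RefSeq start site (GRCm38.p6), 5′ to 3′ on the strand of the gene. Capitals mark matches on either strand to 4 motifs: TGANTCA (the AP-1 motif), GAGGAA (the core motif of the myeloid factor PU.1), GGGCGG (the Sp1 motif) and CAGAC (a Smad motif). Matches to different motifs did not overlap in these windows. The windows lie at chr7:25686752-25687001 on the plus strand for Tgfb1, chr9:116175364-116175613 on the minus strand for Tgfbr2 and chr4:47352972-47353221 on the plus strand for Tgfbr1. RefSeq also gives Tgfbr1 an inner start within the gene, with its window at chr4:47385966-47386215, and the gene counts do not tell the starts apart.
Tgfb1: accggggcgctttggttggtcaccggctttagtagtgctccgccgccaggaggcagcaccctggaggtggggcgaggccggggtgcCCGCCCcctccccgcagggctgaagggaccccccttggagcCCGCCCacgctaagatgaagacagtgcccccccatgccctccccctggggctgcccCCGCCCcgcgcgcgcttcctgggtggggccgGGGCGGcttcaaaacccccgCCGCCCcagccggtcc
Tgfbr2: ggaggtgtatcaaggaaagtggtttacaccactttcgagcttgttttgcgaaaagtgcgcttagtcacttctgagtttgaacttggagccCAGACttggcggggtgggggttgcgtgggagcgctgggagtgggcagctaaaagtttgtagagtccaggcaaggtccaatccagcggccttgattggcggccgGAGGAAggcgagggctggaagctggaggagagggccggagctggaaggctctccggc
Tgfbr1, upstream start: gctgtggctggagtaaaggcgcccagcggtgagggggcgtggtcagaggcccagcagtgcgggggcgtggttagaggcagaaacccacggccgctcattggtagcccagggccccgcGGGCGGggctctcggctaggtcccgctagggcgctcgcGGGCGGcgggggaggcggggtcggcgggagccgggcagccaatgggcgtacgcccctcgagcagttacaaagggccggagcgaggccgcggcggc
Tgfbr1, inner start: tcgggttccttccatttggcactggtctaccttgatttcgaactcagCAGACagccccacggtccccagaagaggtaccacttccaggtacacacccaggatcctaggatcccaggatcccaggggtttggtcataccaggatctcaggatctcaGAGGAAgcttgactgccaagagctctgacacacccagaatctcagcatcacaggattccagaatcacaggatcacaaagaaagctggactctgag

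The Tgfb1 window held 5 matches to GGGCGG, beginning 164, 123, 67, 36 and 16 bases before the start, and its G and C content was 75.2%. The window of the upstream Tgfbr1 start held 2 such matches, 133 and 95 bases before the start, in a sequence of 74.8% G and C. The Tgfbr2 window, at 58.4% G and C, held none of these but 1 match to CAGAC, 160 bases before the start, and 1 to GAGGAA, 57 bases before it. The window of the inner Tgfbr1 start, at 52.8% G and C, also held no GGGCGG but 1 match to CAGAC, 203 bases before the start, and 1 to GAGGAA, 95 bases before it. TGANTCA was found in none of the 4 windows. Of all 32851 RefSeq windows of this length, 32.7% held GGGCGG, 42.2% CAGAC, 23.3% GAGGAA and 6.75% TGANTCA. None of these motifs was present in windows of all 3 genes, although Tgfbr2 and the inner Tgfbr1 start both held CAGAC and GAGGAA, and a match describes letters only and is not a bound site. RefSeq windows were matched for 6 of the 10 members, and the motifs also stood before members that did not pass. The Tgfb2 window held 1 match to GAGGAA and 2 to CAGAC, that of Smad3 2 to GGGCGG, and that of Tgfbi 1 to GGGCGG and 2 to CAGAC, and none of these held TGANTCA.

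Tgfb1 rose together with markers of microglia and macrophages. Of the 19 genes in that marker list, 18 were tested and 17 rose, against 3.98% of all tested genes. Their median log2 fold change was 1.41, and none of the 19 was at 0 in every library. Their summed level ranged from 636 to 768 CPM in PFF and from 218 to 344 CPM in PBS. Set against that sum, Tgfb1 had 1.94, 1.84 and 1.36 CPM per 100 CPM of markers in PFF, against 1.51, 1.38 and 1.595 in PBS, so that the groups overlapped. Tgfbr2 had 2.50, 2.64 and 2.26 CPM per 100 CPM of markers in PFF, against 3.15, 4.18 and 3.40 in PBS, and Tgfbr1 had 3.37, 3.43 and 3.01 in PFF, against 4.16, 6.71 and 6.20 in PBS. The summed markers were themselves 2.45-fold higher in PFF, so that a gene which rose by less is lower on this scale by construction. The same was found for 9 of the 10 members, the Smads among them, and the lower receptor values are therefore no result about the receptors. Tgfb1 itself rose 2.77-fold, so its overlap on this scale also follows largely from fold changes already given and is no separate result. Markers of other cells moved as well, where 3.98% of all tested genes rose and 2.60% fell. Of 14 neuron markers 2 rose and 0 fell. These were Nefm (0.67 ± 0.10, edgeR's adjusted p = 0.000979) and Syt1 (0.33 ± 0.09, adjusted p = 0.0489). Of 14 oligodendrocyte-lineage markers 5 rose, by log2 fold changes up to 1.67 ± 0.20 (Mobp, a myelin gene), and 8 fell, down to -1.66 ± 0.16 (Bcas1, a gene of early myelinating cells), and their summed level ranged from 1141 to 1484 CPM in PFF and from 1109 to 1361 CPM in PBS. Of 12 astrocyte markers 0 rose and 3 fell (Aldoc, Slc1a2 and Aldh1l1, by -0.51 to -0.42). No marker of these lists was at 0 in any library. The part of these markers in the member values was not tested. In bulk RNA, more cells of a type and more RNA per cell cannot be told apart.

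**Figure D4:**
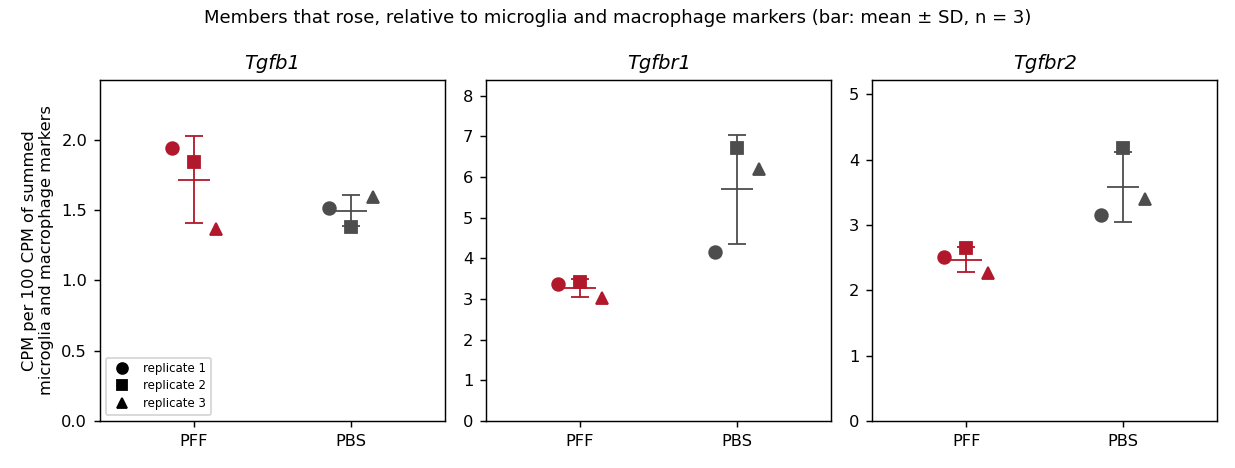
Level of Tgfb1, Tgfbr1 and Tgfbr2 per 100 CPM of the summed microglia and macrophage markers, by library, with the mean and SD. Tgfb1, which itself rose 2.77-fold, overlapped between PFF (1.36 to 1.94) and PBS (1.38 to 1.595). Both receptors lay lower in PFF, as a gene that rose by less than the 2.45-fold of the marker sum must.

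The genes whose pattern was most like that of each risen member were found by the root-mean-square difference of centred log2 CPM over the 6 libraries. Candidates were 11067 tested genes averaging 5 CPM or more, without those whose symbol is only a model or accession name. Nearest to Tgfb1 were the endosomal RNA sensor Tlr7 (0.127), the lysosomal membrane gene Laptm5 (0.139) and the complement gene C1qc (0.145), of which Laptm5 and C1qc belong to the microglia marker list. Their log2 fold changes were 1.73 ± 0.19, 1.49 ± 0.15 and 1.32 ± 0.16. Nearest to Tgfbr2 were the proton pump subunit Tcirg1 (0.0503), the macrophage marker Cd68 (0.0634) and the fibronectin receptor subunit Itga5 (0.0686), with log2 fold changes of 0.73 ± 0.11, 0.72 ± 0.099 and 0.81 ± 0.15. Nearest to Tgfbr1 were the transcription elongation gene Leo1 (0.0536), Ipcef1 (0.0614) and the lipid droplet gene Plin3 (0.0642), with log2 fold changes of 0.54 ± 0.0997, 0.45 ± 0.10 and 0.58 ± 0.17. All of these 9 genes except Plin3 (adjusted p = 0.0592) passed the test in all libraries. They were picked for likeness to risen members over the same 6 libraries, so their fold changes and calls follow largely from that choice. The call of Ipcef1 ended without PFF 2, PBS 1 or PBS 2 (adjusted p from 0.0715 to 0.104), and that of C1qc with replicates 1 and 2 only (0.0709).

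Genes that hold the ligand latent or release it did not pass in the main edgeR fit, but several passed under other settings. Of 20 listed genes 18 were tested and 0 passed, where 6.58% of all tested genes passed. The median log2 fold change of the list was 0.22, beside -0.00056 over all tested genes. Nrros, which anchors latent TGF-β1 on microglia, had 9.22 ± 2.41 CPM in PFF and 4.67 ± 2.06 CPM in PBS (SD, n = 3 each; log2 fold change 0.98 ± 0.28, adjusted p = 0.0608). Itgav, the αv integrin subunit that binds latent TGF-β, had 81.3 ± 5.08 CPM in PFF and 65.5 ± 7.59 CPM in PBS (0.31 ± 0.09, adjusted p = 0.0610). Furin, the protease that cleaves the propeptide, reached 0.28 ± 0.09 on the log2 scale (adjusted p = 0.103) and Itgb3, an αv partner, reached 0.44 ± 0.17 (adjusted p = 0.166). At an unadjusted p under 0.05 in edgeR's test stood 6 of the 18, as did 2944 of all 13919 tested genes. DESeq2 called 1 of the list higher, where it called 3.57% of all genes higher. Nrros, whose groups overlapped (6.56 CPM in PFF 2 and 6.74 CPM in PBS 3), passed in DESeq2 (adjusted p = 0.0130) and limma-voom (0.0499). In edgeR with all libraries, Nrros passed with library size only (0.0427) and without robust estimation (0.0497). It also passed without PFF 2 (0.0391) and without PBS 3 (0.0130), but not without PFF 1, PFF 3, PBS 1 or PBS 2 (0.104 to 0.174). Itgav passed without PFF 3 (0.0197) and without PBS 3 (0.0128), and Furin without PFF 3 (0.0474), and neither passed with another library left out. In edgeR with all libraries, Itgav passed with library size only (0.0390) and with no low-count filter (0.0338). Those settings called 4.43% and 3.35% of all genes higher. Without PFF 3, 6.19% of all genes were called higher. With replicate 3 as a batch term 4 genes of the list passed, among them Nrros (0.00295), Itgav (0.0107) and Furin (0.0320). That fit called 7.39% of all genes higher, against 3.98% in the main fit.

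Among accessory receptors and adaptors 3 of 10 rose and 0 fell, beside 3.98% and 2.60% of all tested genes. The list median was 0.14, beside -0.00056 over all tested genes. Dab2, an endocytic adaptor that binds TGF-β receptors and Smads and is also made by macrophages, rose to 41.4 ± 5.41 CPM in PFF, against 18.1 ± 4.85 CPM in PBS (1.20 ± 0.16, adjusted p = 0.000519). Acvrl1, a receptor best known from endothelium, rose to 1.76 ± 0.276 CPM in PFF, against 0.668 ± 0.101 CPM in PBS (1.38 ± 0.34, adjusted p = 0.0260), and Bambi, a decoy receptor without a kinase, rose to 5.27 ± 0.617 CPM in PFF, against 3.17 ± 0.182 CPM in PBS (0.73 ± 0.19, adjusted p = 0.0337). The value for Zfyve9, which presents Smads to the receptor, was 0.17 ± 0.09 (adjusted p = 0.296). DESeq2, which called 3.57% of all genes higher and also called Tgfb1, Tgfbr2 and Tgfbr1, did not call Acvrl1 or Bambi (adjusted p = 0.0971 and 0.103), and both calls ended without PFF 1, PFF 2, PBS 1, PBS 2 or PBS 3 (adjusted p from 0.0553 to 0.138), whereas Dab2 passed under every alternative run. Of the 6 endothelial genes in the marker list, Flt1 had 14, 20 and 26 counts in PFF, against 9, 8 and 13 counts in PBS, without overlap (0.96 ± 0.34, adjusted p = 0.124). Kdr and Pecam1 had 2 to 11 counts in PFF and 5 to 12 counts in PBS and overlapped, Cdh5 and Tek had at most 8 counts in any library, and Cldn5 was at 0 in all 6. The part of endothelial cells in the Acvrl1 value was not tested.

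Inhibitors and corepressors of the Smads had 2 of 13 genes rise and 0 fall, against 3.98% and 2.60% of all tested genes. Their median was 0.10. Pmepa1, a membrane protein that sequesters Smads and is itself induced by TGF-β, rose to 45.5 ± 3.68 CPM in PFF, against 34.0 ± 2.30 CPM in PBS (0.42 ± 0.09, adjusted p = 0.0157). Skil, the corepressor SnoN, rose to 71.1 ± 3.72 CPM in PFF, against 57.5 ± 1.73 CPM in PBS (0.30 ± 0.08, adjusted p = 0.0315). The related corepressor Ski (0.21 ± 0.07, adjusted p = 0.107) and the Smad4 ubiquitin ligase Trim33 (0.16 ± 0.09, adjusted p = 0.303) did not pass. The call of Pmepa1 ended without PFF 2 or PBS 2 (adjusted p = 0.102 and 0.0766), and that of Skil without PFF 1, PFF 2, PBS 1 or PBS 2 (0.120 to 0.135). Ski passed without PFF 3 (0.0483), as did Trim33 (0.0385).

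In the activin branch, whose receptors use the same Smad2 and Smad3, the median was 0.11. Of its 9 tested genes 1 rose and 0 fell, against 3.98% and 2.60% of all tested genes. The gene that rose was Inhba, which encodes the subunit of activin A and is induced by neuronal activity. It had 7.06 ± 2.67 CPM in PFF and 3.08 ± 0.548 CPM in PBS (1.20 ± 0.27, adjusted p = 0.0177). Its call ended without PFF 2, PBS 1 or PBS 3 (adjusted p = 0.106, 0.0734 and 0.0669). The related subunit Inhbb (0.29 ± 0.15, adjusted p = 0.281), the activin trap Fst (0.45 ± 0.28, adjusted p = 0.372) and the receptor Acvr2a (0.11 ± 0.08, adjusted p = 0.468) did not pass.

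Genes known as targets of TGF-β in other cells went in both directions. Of 25 listed genes 23 were tested, and 5 rose and 2 fell, against 3.98% and 2.60% of all tested genes. The median log2 fold change of the list was 0.17. Junb, an AP-1 subunit also induced by many other signals, rose to 26.1 ± 1.01 CPM in PFF, against 16.5 ± 1.20 CPM in PBS (0.66 ± 0.10, adjusted p = 0.00121). The protease inhibitor Timp1 rose by a log2 fold change of 1.36 ± 0.30 (adjusted p = 0.0141) and the matrix gene Fn1 by 0.60 ± 0.14 (adjusted p = 0.0181), beside Pmepa1 and Skil, which stand in this list too. Timp1 was scarce, with 30, 39 and 37 counts in PFF, against 12, 8 and 20 counts in PBS. The genes that fell, named here after their values were seen, were the cell cycle inhibitor Cdkn2b, at 1.89 ± 0.449 CPM in PFF and 3.89 ± 0.389 CPM in PBS (-1.03 ± 0.24, adjusted p = 0.0197), and the contractile gene Tagln (-0.78 ± 0.21, adjusted p = 0.0410), of whose exonic bases 67.9% overlap other genes on the opposite strand. The groups overlapped for Tagln, with 12.1 CPM in PFF 1 and 11.9 CPM in PBS 2. Timp1 did not pass without PFF 2, PBS 1 or PBS 2 (adjusted p from 0.0592 to 0.0768), Fn1 without PBS 3 (0.0660), Cdkn2b without PFF 2 or PBS 1 (0.108 and 0.0910), and Tagln without PFF 2, PFF 3, PBS 1 or PBS 3 (0.0555 to 0.189). The summed level of 14 endothelial, pericyte and fibroblast markers, cells in which Tagln and Fn1 are abundant, ranged from 37.4 to 67.2 CPM in PFF and from 57.3 to 71.8 CPM in PBS, with Cldn5 and Kcnj8 at 0 in every library, and its part in these values was not tested.

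Of the genes whose expression in microglia depends on TGF-β, some rose and others did not pass the test in these mixed cultures. Of 12 listed genes 9 were tested, and 6 rose and 0 fell, where 3.98% of all tested genes rose and 2.60% fell. The median was 1.10, while the wider microglia marker list stood at 1.41. Csf1r, the receptor for the microglial survival factor, rose to 26.4 ± 2.97 CPM in PFF, against 11.1 ± 2.68 CPM in PBS (1.26 ± 0.15). The fractalkine receptor Cx3cr1 (1.24 ± 0.16) and Olfml3 (1.23 ± 0.22) rose by similar factors, as did Fcrls (1.04 ± 0.19) and Gpr34 (1.10 ± 0.22), named after their values were seen, and edgeR's adjusted p for these 5 genes lay between 0.000172 and 0.00680. Of the exonic bases of Csf1r, 15.1% overlap a gene on the opposite strand. The 3 tested genes that did not pass, named after their values were seen, were the purinergic receptor P2ry12, the transcription factor Sall1 and the phagocytic receptor Mertk. P2ry12 had 14, 12 and 11 counts in PFF, against 13, 10 and 7 counts in PBS. The log2 fold change of Sall1 was 0.01 ± 0.11, and that of Mertk was 0.49 ± 0.18 (adjusted p = 0.140). Mertk lay higher in every PFF library than in any PBS library, as did 13.4% of all tested genes. With replicates 1 and 2 only, Mertk passed edgeR's test (0.71 ± 0.21, adjusted p = 0.0179), where 8.78% of all genes were called higher. Sall1 had 21.6 CPM in PFF and 21.5 CPM in PBS, far above P2ry12 (1.20 and 1.02 CPM). Which cells the reads of Sall1 and Mertk came from was not tested, so their values cannot be read as those of microglia. Tmem119, a marker of resting microglia, had 4, 6 and 3 counts in PFF, against 4, 2 and 2 counts in PBS, and Siglech had 0 counts in every library but PBS 3, where it had 1. Neither Tmem119 nor Siglech had enough counts to be tested, and the 95% interval of P2ry12 ran from -0.51 to 1.03. The other untested gene of the list, P2ry13, had 9, 11 and 9 counts in PFF, against 5, 5 and 6 counts in PBS. It thus lay higher in every PFF library than in any PBS library. Csf1r, Cx3cr1, P2ry12 and Tmem119 also stand in the microglia marker list, so the lists are not separate measurements.

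**Figure D5:**
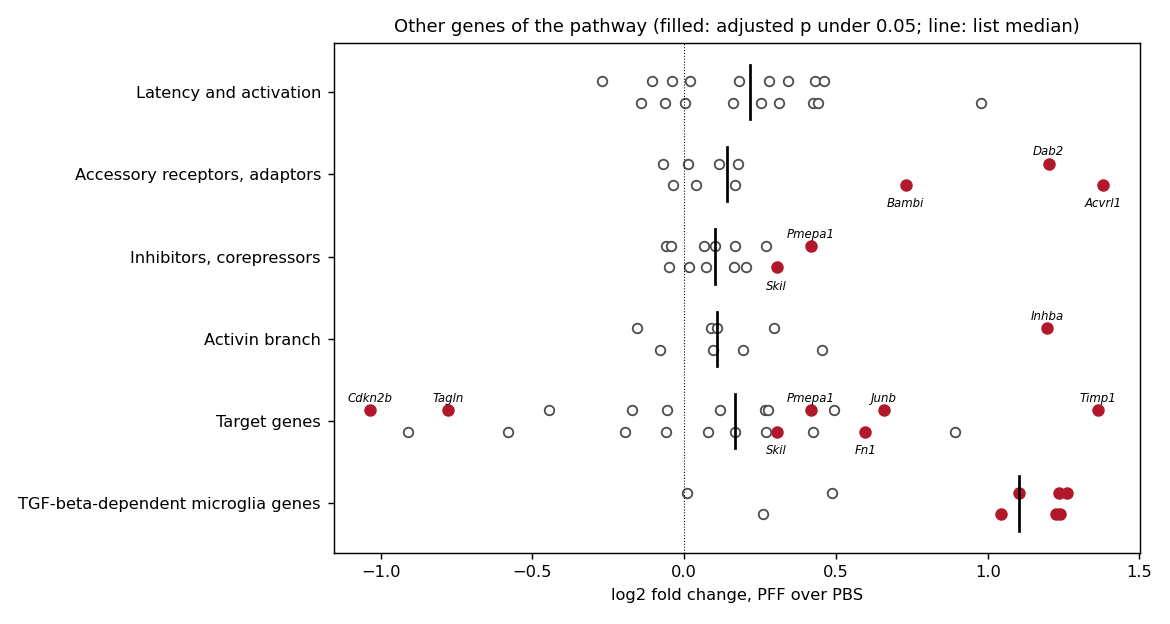
Log2 fold change of PFF over PBS for each tested gene of 6 lists of the TGF-β pathway, with filled points for an adjusted p under 0.05 and a line at each list's median; points of the last list carry no gene names. The TGF-β-dependent microglia genes have a median of 1.10, and the medians of the other 5 lists lie between 0.10 and 0.22.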

How the data were processed

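Total RNA of 3 PFF and 3 PBS samples was sequenced from libraries whose kit keeps the strand, as the labels' protocols state. The authors deposited a table of estimated counts without scaling, in which 8.69% of values were not whole numbers. The submitters' processing notes name Trim Galore 0.6.6, STAR 2.7.9a, DESeq2 1.38.3 and mm10. How reads were counted (tool, strand setting, annotation) is not given in the sources used here, so reads of overlapping genes may have been shared.

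Columns were matched to samples by name and groups taken from the titles. Library totals lay between 9224974 and 10742383. Values were rounded, filtered with edgeR's filterByExpr (minimum count 10; 10492 of 24411 genes removed), TMM-normalised and tested in R 4.3.3 with edgeR 4.0.16 (robust quasi-likelihood F-test, two-sided, group as the only term, Benjamini-Hochberg adjustment over 13919 genes, threshold 0.05). The SE is the size of the log2 fold change over the square root of F. Nearest patterns used log2 CPM with a prior count of 2. Alternatives used DESeq2 1.42.0, limma 3.58.1, other scalings and filters, a replicate block and each library left out. Chosen after seeing the data were a fit of replicates 1 and 2 alone, a batch term for replicate 3, and removal of the ribosomal RNA precursor Rn45s (3.06% to 4.13% of counts in PFF, 4.21% to 5.80% in PBS).

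The members and lists were chosen with earlier results of these data known. In each further list up to 4 genes with the smallest unadjusted p were named, and all that passed where these were 5 or fewer; others are said to be named after their values were seen. A gene of the TGF-β-dependent microglia list that the rule selects is counted with its list and not reported here. Lengths (all annotated exons of a gene merged) and overlaps came from GENCODE vM21, promoters from RefSeq. The listed Ccn1 and Ccn2 stand in the table as Cyr61 and Ctgf. No replicate pair matched within sampling noise (chi-square per degree of freedom 2.78 to 9.62). The steps were tested on simulated data.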

Additional observations from a re-analysis of the deposited data

How the results depend on the processing

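Tgfb1 and Tgfbr2 passed under all 18 alternatives, with log2 fold changes from 1.27 to 1.64 and from 0.72 to 0.86. Tgfbr1 passed under 17, from 0.49 to 0.61, and not without PBS 1 (adjusted p = 0.0549). The stricter filter (at least 50 counts in 3 libraries) dropped Tgfbr3. Over all genes, 1043 rose and 954 fell with the replicate block, 1225 and 1169 with replicates 1 and 2 only, and 1029 and 976 with replicate 3 as a batch term. Leaving out 1 library gave 312 to 871 higher and 100 to 987 lower. Members called lower numbered 1 (Tgfbi) with replicates 1 and 2 only (-0.83), and 0 to 1 with 1 library left out, where Tgfbi ran from -0.73 to -0.35 and Tgfbr1 from 0.49 to 0.61. With replicates 1 and 2 only, the signs turned for Tgfb2 (0.18), Smad2 (-0.019), Smad3 (0.015), Smad4 (-0.0046) and Sall1 (-0.039). With 1 library left out, Tgfb2 ran from -0.22 to 0.065, Smad2 from -0.020 to 0.083, Smad3 from -0.10 to 0.00089 and Sall1 from -0.036 to 0.096. Sall1 was -0.00090 with upper-quartile scaling. The cause was not tested.

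Latency genes called higher numbered 2 with library size only, 1 each with no filter, DESeq2, limma-voom or no robust estimation, 4 with the replicate block, 3 with replicates 1 and 2 only, 4 with replicate 3 as a batch term and 0 to 2 with 1 library left out, where 0 to 1 were lower. Accessory receptors higher numbered 1 with the stricter filter, 1 in DESeq2 and 1 to 3 with 1 library left out. Inhibitors higher numbered 4 with replicates 1 and 2 only and 0 to 4 with 1 library left out. Activin genes higher numbered 0 with the stricter filter, 2 with replicates 1 and 2 only and 0 to 1 with 1 library left out. Target genes higher numbered 2 to 5 with 1 library left out. Target genes lower numbered 1 with the stricter filter, 4 with the replicate block, 4 with replicates 1 and 2 only and 0 to 4 with 1 library left out. The shares of all genes called also changed with the setting. In the main fit 3.98% were higher and 2.60% lower, and with the replicate block 7.49% and 6.85%. With replicates 1 and 2 only it was 8.78% and 8.38%, and with replicate 3 as a batch term 7.39% and 7.01%. With 1 library left out, 2.22% to 6.19% were higher and 0.711% to 7.01% lower. The list counts were not adjusted for these shares.

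The replicate numbers were not taken to pair the libraries, because nothing in the labels says that they mark shared cultures. Deviations of same-numbered libraries correlated at 0.092, 0.11 and 0.20 for replicates 1, 2 and 3, and those of different-numbered libraries at -0.21 to 0.13. PFF 2 and PFF 3 correlated best with the PBS library of their own number, a hint from the data and not from the design, and PFF 1 with PBS 2 (0.13). The block changed no call of a member, and under it Nrros, Itgav and Furin passed (adjusted p = 0.00055, 0.0176 and 0.0391). Tgfbr3, with 15 to 27 counts per library, had the largest SE of the members (0.26).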
